A study of Mus musculus with 44 samples.

Results

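The question addressed here was which genes of the gastric corpus responded differently to gastrin receptor blockade in mice without an acid pump and in mice with one, and in which of the genotypes the response was larger. All 44 of the 44 libraries of the series entered this comparison, each placed by its label in one of 4 groups. The KO mice gave 13 libraries under PEG (KO/PEG) and 11 under NTZ (KO/NTZ), and the WT mice 11 (WT/PEG) and 9 (WT/NTZ). The animals were BalbC mice aged 13 months at sampling, according to the labels, and female according to the methods. KO mice carried on both alleles an inserted neomycin construct in Atp4b, the gene of the H+/K+ATPase beta subunit, so that the loss was present in every tissue and from conception, and WT mice carried the intact gene. Netazepide (NTZ, named YF476 during its development and YF in the labels), a competitive antagonist of the gastrin receptor, or its vehicle polyethylene glycol (PEG) was given by repeated subcutaneous injection from a young age until the end of the study. Messenger RNA came from pieces of ventral corpus mucosa, so that each value is an average over all cells of a piece.

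Gastrin is released by G cells of the antrum and acts on the receptor encoded by Cckbr, which in the corpus is carried mainly by the enterochromaffin-like (ECL) cells. ECL cells make histamine, which drives parietal cells to secrete acid, and acid in turn restrains gastrin through somatostatin. When the proton pump is lost, this restraint falls away, gastrin rises, and ECL cells and mucosa grow. For each gene the NTZ effect was the log2 ratio of NTZ to PEG within a genotype, and the difference was the NTZ effect in KO minus that in WT.

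The deposited values were kallisto's estimated counts per transcript, summed here per gene, with 6065084 to 21945124 counts per library. Levels are given as CPM, counts relative to library size after TMM scaling, and a floor of 3 counts lay between 0.114 and 0.588 CPM, which covers counting error only. Atp4b was at 2879 to 5761 CPM (median 3831) in WT/PEG and 2141 to 5109 (median 3694) in WT/NTZ, and at 2.34 to 17.2 (median 5.61) in KO/PEG and 4.2 to 40.5 (median 7.49) in KO/NTZ, so that every library matched its labelled genotype, and its difference between genotypes in NTZ effect, 1.0 (edgeR adjusted p = 0.313), did not pass the threshold. By their labels, WT_172 names 2 WT/PEG libraries, and KO_110 occurs in both KO groups. The 13 KO/PEG libraries are more than the KO/PEG mice of the methods. P-values therefore measure the spread between libraries, some of which may share an animal. The WT_172 libraries differed by more than sampling noise and were kept as separate libraries. With their counts summed into 1 library, 86 genes with a negative and 27 with a positive difference passed (113 in all), and Hdc, Pcsk1n, Ereg, Ddx60 and Xaf1 of the genes named below did not. Animal numbers of 100 or above were carried by 11 of 11 WT/PEG, 4 of 9 WT/NTZ, 7 of 13 KO/PEG and 1 of 11 KO/NTZ libraries, so that they fell mostly on the PEG groups, and what they stand for is not given in the sources used here. Some libraries, named here by genotype and animal number as in their labels, stood apart. Of the WT/NTZ libraries, WT_86 and WT_118 had summed levels of 1222 and 1193 CPM over 23 interferon-stimulated genes, against 107 to 186 in the other 7 WT/NTZ libraries. Over 17 markers of squamous epithelium, which lines the mouse forestomach and not the corpus, WT_92, WT_103, WT_117, WT_118 and WT_171 reached 1280.2 to 5695 CPM, against 37.7 to 905 in WT/PEG. Of the KO/PEG libraries, KO_46, KO_52 and KO_109 had 1653 to 4327 CPM over 10 markers of endothelium and red blood cells, against 278 to 904 in the other 10 KO/PEG libraries.

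The response to NTZ depended on genotype for 0.966% of the 14911 genes tested (edgeR quasi-likelihood test with Benjamini-Hochberg adjustment, threshold 0.05). The difference was negative for 108 genes (0.724% of all tested) and positive for 36 (0.241%), while 1741 genes had an unadjusted p under 0.05. Over all genes the median difference was -0.01 on the log2 scale. Within genotypes, 851 genes (5.71%) changed with NTZ in KO mice, 450 of them up (3.02%) and 401 down (2.69%). In WT mice 153 genes changed (1.03%), 152 up (1.02%) and 1 down (0.00671%). With the animal number of 100 or above as a term, 1386 genes changed in KO and 309 in WT.

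Both genotypes carried the differences. The NTZ effect was larger in size in KO mice for 76 of these genes and in WT mice for 68. Which effect was larger was tested through the sum of the NTZ effects. Where the sum has the sign of the difference the KO effect is the larger in size, and where it has the opposite sign the WT effect is. The sum passed for 48 of these genes, against 2.38% of all genes (1.59% with a positive and 0.791% with a negative sum), 30 with the larger effect in KO and 18 with the larger effect in WT, and did not pass for the other 96. Of the 108 genes with a negative difference, 43 passed for their NTZ effect in KO alone, 48 in WT alone, 1 in both and 16 in neither. Of the 36 with a positive difference, 35 passed in KO alone and 1 in neither. These counts use the same libraries as the difference and are a description of it. Genes that fell or rose with NTZ in KO mice thus stood beside genes that rose in WT mice, and none of the called genes passed for a fall in WT mice.

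**Figure D1:**
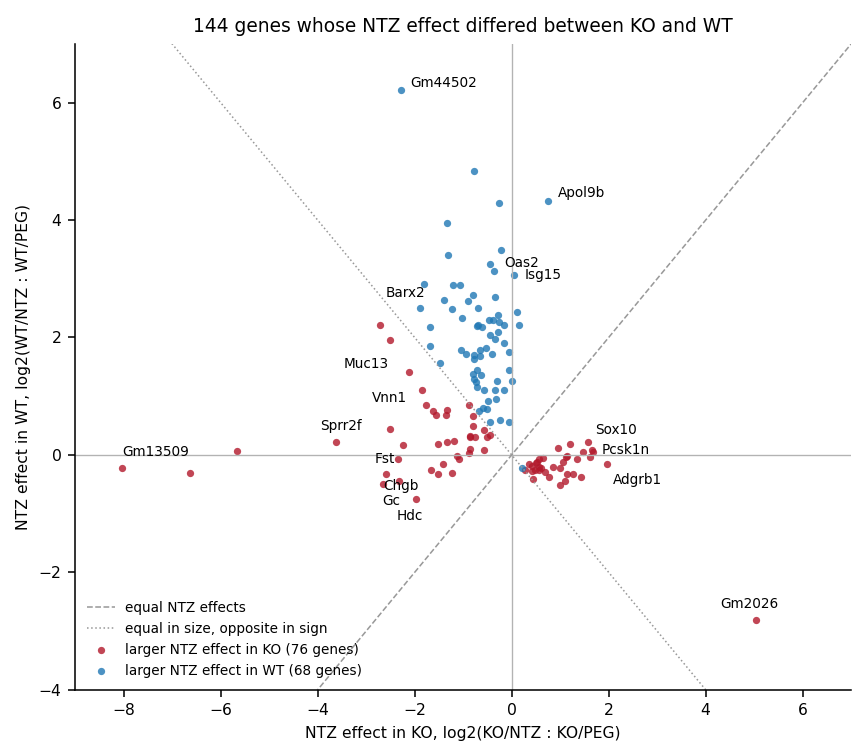
NTZ effect in KO mice (horizontal axis, log2) against that in WT mice (vertical axis, log2) for the genes whose effects differed, coloured by the genotype with the larger effect. The 68 genes in blue lie above a WT effect of 0, apart from Iqsec2 (-0.22), at KO effects of -2.28 to 0.76. The 76 genes in red lie on both sides, at WT effects of -2.81 to 2.22, and the effects of 90 of the 108 genes with a negative and 30 of the 36 with a positive difference have opposite signs.

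The count was sensitive to single libraries, mainly of the WT/NTZ group. It ranged from 92 without WT_118 to 213 without WT_93 as each of the 44 libraries was left out in turn, and 61 of the called genes passed in each of the 44 fits, 38 with the larger effect in KO and 23 with the larger effect in WT. Without WT_86 and WT_118 together, an alternative chosen after the data were seen, 50 genes passed, 45 of them among the genes called with all libraries. Of those 45, 29 had the larger effect in KO and 16 in WT.

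Several ECL cell and neuroendocrine genes fell with NTZ in KO mice more than in WT mice. Of 20 genes in a list of ECL cell and neuroendocrine genes, 5 passed for the difference, 4 of them negative: Chga and Chgb, which encode the granins chromogranin A and B, Hdc, the enzyme that makes histamine, and Pcsk1, a protease that matures prohormones in granules. Pcsk1n, which encodes an inhibitor of that protease, passed in the opposite direction. The median difference over the list was -0.25, against -0.01 over all genes, of which 0.966% passed. The list was drawn up with results of these libraries known, so its count is no independent evidence of a direction.

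Chgb (chr2:132781278-132795079 of GRCm38) showed the pattern of the group. It was at 28.3 to 123 CPM (median 72.2) in KO/PEG and 12.5 to 35.4 (median 24.5) in KO/NTZ, and at 23 to 55.5 (median 29.9) in WT/PEG and 22.3 to 31.6 (median 26.4) in WT/NTZ. By their medians KO/PEG stood above the other 3 groups, whose ranges overlapped, and 7 of 11 KO/NTZ libraries were below every KO/PEG library. On the log2 scale Chgb changed by -1.53 (edgeR adjusted p = 1.41e-07) in KO and by -0.33 (edgeR adjusted p = 0.781) in WT, a difference of -1.20 (SE 0.25, edgeR adjusted p = 0.0106).

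Hdc (chr2:126593667-126619299) was at 32.6 to 114 CPM (median 69.8) in KO/PEG and 11.5 to 32.7 (median 14.9) in KO/NTZ, and at 14.7 to 56.3 (median 23.4) in WT/PEG and 9.09 to 24.8 (median 15.1) in WT/NTZ. The KO/PEG median exceeded all 11 KO/NTZ libraries, 10 of which were below every KO/PEG library, while the WT groups overlapped. Its NTZ effect was -1.97 (edgeR adjusted p = 1.05e-07) in KO and -0.75 (edgeR adjusted p = 0.145) in WT, a WT value that did not pass, and the difference was -1.23 (SE 0.31, edgeR adjusted p = 0.0389). Chga (chr12:102554969-102565028), the most abundant of them in counts, was at 682 to 2279 CPM (median 1671) in KO/PEG and 527 to 791 (median 647) in KO/NTZ, and at 369.6 to 782 (median 429.5) in WT/PEG and 273 to 532 (median 394) in WT/NTZ. It changed by -1.22 (edgeR adjusted p = 7.93e-07) in KO and by -0.31 (edgeR adjusted p = 0.732) in WT, with a difference of -0.91 (SE 0.22, edgeR adjusted p = 0.0282). Pcsk1 (chr13:75089826-75134861) had medians of 8.35 CPM in KO/PEG, 2.67 in KO/NTZ, 7.44 in WT/PEG and 6.15 in WT/NTZ, and a difference of -1.40 (SE 0.33, edgeR adjusted p = 0.0258). Unlike the chromogranins and Hdc, it was at similar medians in both PEG groups, and KO/NTZ was the low group. For all 4 genes the KO effect was larger in size than the WT effect, with edgeR adjusted p for the sum of the effects of 1.19e-05, 6.09e-07, 4.92e-05 and 0.000866 in the order Chgb, Hdc, Chga and Pcsk1. Chgb and Pcsk1 passed in each of the 44 fits with a library left out, Chga in 43 and Hdc in 24. Without WT_86 and WT_118 the edgeR adjusted p was 0.0319 for Chgb, 0.0444 for Pcsk1, 0.0509 for Chga and 0.0652 for Hdc, with differences of -0.95 for Chga and -1.28 for Hdc. Chga and Hdc did not pass either when KO animals with numbers of 100 or above were left out, at -0.69 (edgeR adjusted p = 0.129) and -0.93 (edgeR adjusted p = 0.168). Because a piece of mucosa holds many cell types, fewer ECL cells and less RNA per ECL cell cannot be told apart.

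Pcsk1n (chrX:7919822-7924410) was at 1.51 to 12.5 CPM (median 4.29) in KO/PEG and 5.09 to 33.3 (median 16.6) in KO/NTZ, and at 3.39 to 8.62 (median 5.63) in WT/PEG and 4.05 to 8.6 (median 5.61) in WT/NTZ. KO/NTZ was the high group, with 8 of 11 libraries above every KO/PEG library, and its difference was 1.58 (SE 0.40, edgeR adjusted p = 0.0389). It passed in 17 of the 44 fits with a library left out. The protease and its inhibitor thus moved in opposite directions in the same KO mice, and neither changed past the threshold in WT mice.

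**Figure D2:**
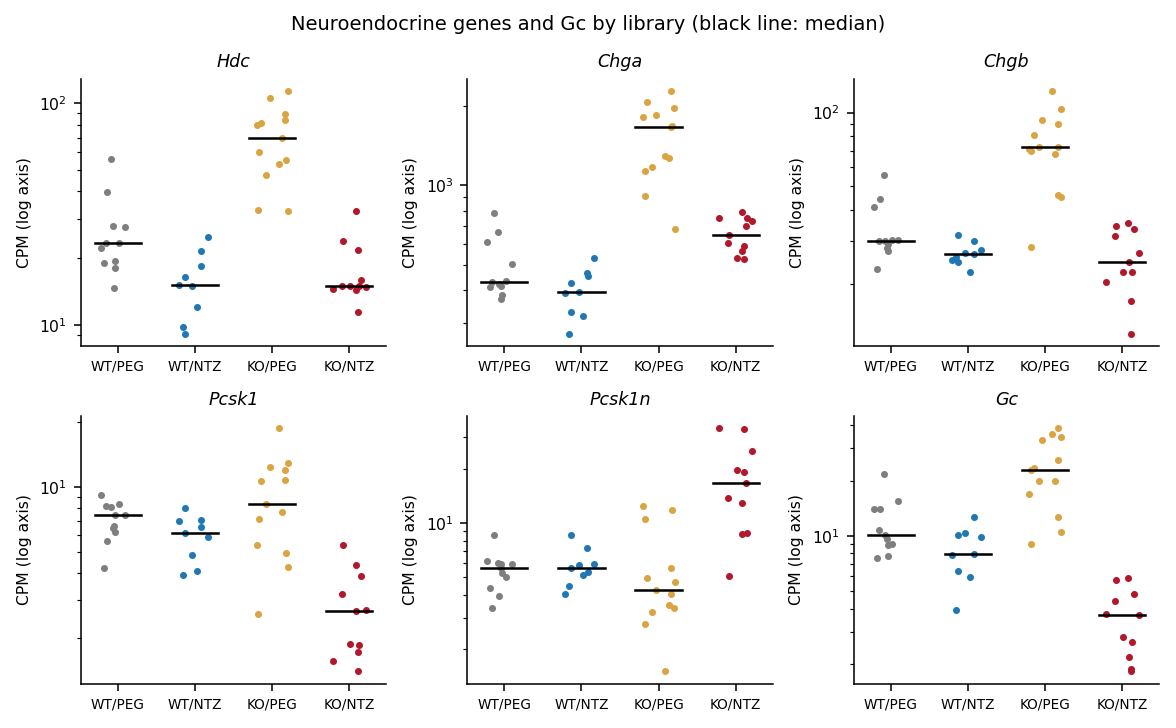
CPM of 6 genes in each of the 44 libraries (vertical log axes), with a black line at each group's median. Hdc, Chga, Chgb and Gc are high in KO/PEG and lower in KO/NTZ, Pcsk1 is lowest in KO/NTZ, and Pcsk1n is highest in KO/NTZ, while the WT groups overlap.

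The sequences upstream of Chgb and Pcsk1 are shown because, of the called genes, these 2 hold a full cAMP response element, the palindrome TGACGTCA bound by CREB factors, in the 250 bases before their RefSeq start (GRCm38.p6). They are read 5′ to 3′ on the gene's strand, with the element in capitals. For Pcsk1 the window is printed up to the first base of the GENCODE gene model. The GENCODE model of Chgb starts further upstream, so that the element lies in its first exon, and only 30 bases around the element are printed. Both strands were searched, which for a palindrome give the same matches. The element was in 1.55% of 32851 such windows (1.77% of genes). It was in 2 of the 98 called genes that have a window (2.04%), a share near that of all genes, and in 2 of the 5 called ECL list genes. The motif was picked after the genes were known, and a match is a description of the letters only.
Chgb, around the element (chr2:132781559-132781588, plus strand): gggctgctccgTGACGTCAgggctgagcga
Pcsk1, upstream window (chr13:75089607-75089825, plus strand): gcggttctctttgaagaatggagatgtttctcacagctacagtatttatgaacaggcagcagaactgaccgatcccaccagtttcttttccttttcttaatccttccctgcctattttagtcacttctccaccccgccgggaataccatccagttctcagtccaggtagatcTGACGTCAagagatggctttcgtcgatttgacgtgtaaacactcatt

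The remaining 15 genes of the list did not pass for the difference. Cckbr, the gastrin receptor, had an NTZ effect of -0.98 (edgeR adjusted p = 0.00241) in KO and -0.41 (edgeR adjusted p = 0.804) in WT, with a difference of -0.58 (edgeR adjusted p = 0.498). Slc18a2, the transporter that loads histamine into granules, had effects of -0.79 and -0.28 and a difference of -0.51 (edgeR adjusted p = 0.558). For these genes a change in KO was present without a difference between genotypes being shown. Vgf, another granin-like gene, had a difference of -1.70 (edgeR adjusted p = 0.0896) with an effect of -2.06 (edgeR adjusted p = 5.25e-05) in KO. Syp, Cpe, Ddc and Neurod1, which mark endocrine cells in general, had differences of 0.20, -0.01, -0.01 and -0.08. Of the other gastric hormones, 8 of 12 genes were tested and none passed for the difference. Sst, somatostatin of the D cells, changed by 0.89 (edgeR adjusted p = 0.0361) in KO and 0.12 (edgeR adjusted p = 0.962) in WT, a difference of 0.77 (edgeR adjusted p = 0.458), and Ghrl, ghrelin of the X/A-like cells, had a difference of 0.33 (edgeR adjusted p = 0.537).

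The gene with the smallest p was Gc (chr5:89417522-89457898), which encodes the vitamin D binding protein, a plasma protein made chiefly by the liver. It was at 9.05 to 38.5 CPM (median 22.7) in KO/PEG and 1.82 to 5.9 (median 3.68) in KO/NTZ, and at 7.57 to 21.7 (median 10.1) in WT/PEG and 3.95 to 12.6 (median 8.0) in WT/NTZ. All 11 KO/NTZ libraries were below all 13 KO/PEG libraries, which happened for 0.0335% of the genes tested, while WT/NTZ and WT/PEG overlapped. The NTZ effect was -2.66 (edgeR adjusted p = 6.54e-10) in KO and -0.49 (edgeR adjusted p = 0.675) in WT, and the difference was -2.17 (SE 0.34, edgeR adjusted p = 0.0013). A further 2 genes of the list of 27 liver-type plasma proteins, of which 20 were tested, passed for the difference, both negative. Vtn, which encodes vitronectin, had medians of 35 CPM in KO/PEG, 17.4 in KO/NTZ, 18.7 in WT/PEG and 18.8 in WT/NTZ, and a difference of -1.26 (SE 0.30, edgeR adjusted p = 0.0248). Cp, the copper-carrying ferroxidase ceruloplasmin, had medians of 9.13, 4.65, 4.71 and 5.89 CPM in the same order and a difference of -1.43 (SE 0.34, edgeR adjusted p = 0.0238). In all 3, KO/PEG was the highest group by its median and KO/NTZ the lowest. Gc and Vtn passed without WT_86 and WT_118 (edgeR adjusted p = 0.000549 and 0.0431), while Cp, at -1.33, did not (edgeR adjusted p = 0.0629). With only KO animals numbered below 100 Gc and Cp passed (edgeR adjusted p = 0.00346 and 0.00878) and Vtn, at -0.93, did not (edgeR adjusted p = 0.134). Ahsg, which encodes the plasma protein fetuin A, had a KO effect of -2.57 (edgeR adjusted p = 6.06e-07) but a difference of -1.60 (edgeR adjusted p = 0.0669). Over the 20 genes the median difference was -0.49, and the other 17 included Alb at -0.50 (edgeR adjusted p = 0.81) and Apoa1 at 0.04 (edgeR adjusted p = 0.974). Of 10 hepatocyte markers 4 passed the filter on low counts: Cyp2e1, Cyp2c29, Ass1 and Asgr1. For the rest, the highest counts in any library were 5 for Cps1, 2 for Cyp7a1 and 6 for Slc10a1. They were 10 for Cyp3a11, 8 for Tat and 3 for Hpd. Cyp2e1 reached 52.9 CPM in WT/NTZ libraries other than WT_86 and WT_118, where its median was 2.23. The hepatocyte sum reached 67.4 CPM in WT_117 and 78.4 in KO_46, against group medians of 25.02 in WT/NTZ and 18.2 in KO/PEG. The part of liver tissue in the plasma protein values was not tested. Tfrc, the transferrin receptor that takes up iron, was the 1 of 12 iron genes that passed, at 75.8 to 260.1 CPM (median 119) in KO/PEG and 45.9 to 86 (median 59.6) in KO/NTZ, and at 88.9 to 199 (median 125) in WT/PEG and 69.9 to 186 (median 122) in WT/NTZ. Its difference was -1.01 (SE 0.25, edgeR adjusted p = 0.0282), and 8 of 11 KO/NTZ libraries were below every KO/PEG library. The difference was -1.0 (edgeR adjusted p = 0.0706) without WT_86 and WT_118.

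Among mucins, 9 of 13 were tested and 2 passed, both with a fall in KO. Muc13, a membrane mucin of intestinal and gastric epithelium, was at 6.88 to 107 CPM (median 16.7) in KO/PEG and 2.23 to 14.6 (median 7.0) in KO/NTZ, and at 0.257 to 3.53 (median 0.687) in WT/PEG and 0.802 to 9.55 (median 1.84) in WT/NTZ, and its difference was -3.52 (SE 0.70, edgeR adjusted p = 0.0106). Muc5b, a gel-forming mucin of airway and gland epithelium that the normal corpus hardly expresses, was at 1.6 to 19.7 CPM (median 8.29) in KO/PEG and 0.832 to 3.72 (median 1.58) in KO/NTZ, and at 0.0967 to 1.36 (median 0.393) in WT/PEG and 0.25 to 0.974 (median 0.515) in WT/NTZ, and its difference was -2.41 (SE 0.57, edgeR adjusted p = 0.0248). For Muc13 the effects were -2.11 (edgeR adjusted p = 0.00215) in KO and 1.41 (edgeR adjusted p = 0.385) in WT, and their sum did not pass (edgeR adjusted p = 0.546). Medians in the WT groups were low, so the WT effects rest on few counts. Without WT_86 and WT_118 neither difference passed, at -2.81 (edgeR adjusted p = 0.0686) for Muc13 and -2.37 (edgeR adjusted p = 0.0706) for Muc5b. The main corpus mucins were not among the calls: Muc5ac of the surface and Muc6 of the neck and deep glands had differences of 0.10 (edgeR adjusted p = 0.973) and 0.60 (edgeR adjusted p = 0.77). None of 16 genes of mucous neck cells and spasmolytic polypeptide-expressing metaplasia (SPEM), the mucous cell type that replaces chief cells in injured corpus, passed for the difference, by edgeR, and the values were 0.20 (edgeR adjusted p = 0.933) for Tff2, 0.08 (edgeR adjusted p = 0.942) for Clu, 0.11 (edgeR adjusted p = 0.96) for Wfdc2 and -0.53 (edgeR adjusted p = 0.523) for Cd44. The median difference over these 16 genes was -0.54.

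Further genes with a negative difference had, by estimate, the larger effect in KO mice. The sum of the effects passed for Fst, Tm4sf5 and Sprr2f. It did not pass for Vnn1 (edgeR adjusted p = 0.212) or Mmp12 (edgeR adjusted p = 0.0737). Fst (chr13:114452290-114458951), which encodes follistatin, the binding protein that neutralises activin, was at 1.32 to 8.7 CPM (median 5.34) in KO/PEG and 0.156 to 1.41 (median 0.685) in KO/NTZ, and at 0.539 to 3.14 (median 1.28) in WT/PEG and 0.50 to 1.87 (median 1.14) in WT/NTZ. In 10 of 11 KO/NTZ libraries Fst was below every KO/PEG library, the WT groups overlapped, and the difference was -2.26 (SE 0.43, edgeR adjusted p = 0.00823). Vnn1 (chr10:23894688-23905343), a pantetheinase of epithelial membranes, was at 30.7 to 196 CPM (median 64.2) in KO/PEG and 15 to 40.4 (median 27.6) in KO/NTZ, and at 1.29 to 5.0 (median 3.26) in WT/PEG and 2.78 to 16.9 (median 4.1) in WT/NTZ, with effects of -1.76 (edgeR adjusted p = 6.33e-05) in KO and 0.84 (edgeR adjusted p = 0.386) in WT. Its difference of -2.61 (SE 0.43, edgeR adjusted p = 0.00154) therefore combined a fall in KO with a positive WT value that did not pass, the highest libraries being WT_118 at 16.9 CPM and WT_86 at 9.75. Without these libraries it was -1.95 (edgeR adjusted p = 0.0198). Tm4sf5, a tetraspanin-like membrane protein of gut epithelium, had a difference of -1.70 (SE 0.33, edgeR adjusted p = 0.00823), with KO medians of 16.1 and 6.1 CPM under PEG and NTZ. Sprr2f, a small proline-rich protein of cornified and stressed epithelium, had KO medians of 5.72 and 0.806 CPM, and a difference of -3.85 (SE 0.71, edgeR adjusted p = 0.00773). Mmp12, the macrophage elastase, had a difference of -1.55 (edgeR adjusted p = 0.0197) with KO medians of 8.53 and 4.35 CPM. Ereg, which encodes the EGF receptor ligand epiregulin, had a difference of -2.38 (edgeR adjusted p = 0.0456), from effects of -1.63 in KO and 0.74 in WT, and passed in 16 of the 44 fits with a library left out. It was the only call among 19 tested genes of the list of gastrin-regulated genes and EGF receptor ligands, and Fst and Mmp12 were the only calls among 26 matrix and matricellular genes. Of 14 macrophage and myeloid markers, none passed for the difference or in KO mice by edgeR. Their differences were below 0 for 14 of 14, with a median of -0.85, and so were their KO effects, with a median of -0.31 and summed levels of 161 to 347 CPM in KO/PEG and 145 to 278 in KO/NTZ, and the part of such cells in the values of Mmp12 was not tested.

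All but 1 of the 36 genes with a positive difference had, by estimate, the larger effect in KO, where NTZ moved them up. The sum of the effects passed for 12 of these 35, among them Adgrb1, Sox10, Uchl1 and Hmcn2. It did not pass for Fbln1, Chd5, Tmem179, Scnn1a or Ppargc1b. Adgrb1 (chr15:74516195-74589465), an adhesion receptor that binds apoptotic cells and is abundant in brain, had the smallest p for the difference among the 36. It was at 0.687 to 3.56 CPM (median 2.03) in KO/PEG and 4.65 to 15.6 (median 7.84) in KO/NTZ, and at 3.3 to 8.15 (median 5.13) in WT/PEG and 2.06 to 7.98 (median 4.28) in WT/NTZ. It was the 1 gene of those tested (0.00671%) for which all 11 KO/NTZ libraries were above all 13 KO/PEG libraries, and the WT medians lay between those of the KO groups. The effects were 1.96 (edgeR adjusted p = 5.95e-07) in KO and -0.16 (edgeR adjusted p = 0.952) in WT, and the difference was 2.12 (SE 0.35, edgeR adjusted p = 0.00154).

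Several of the rises were in genes of nerve and glia. Of 18 neuronal and glial genes tested, 3 passed for the difference, all positive, against 0.241% of all genes, and the list's median difference was 0.85. This list too was chosen with earlier results of these data known, so its count is no independent evidence of a direction. Sox10, the transcription factor of glia and neural crest, was at 0.0732 to 0.965 CPM (median 0.494) in KO/PEG and 0.917 to 2.38 (median 1.63) in KO/NTZ, and at 1.42 to 2.73 (median 2.17) in WT/PEG and 1.5 to 3.31 (median 2.47) in WT/NTZ. In 10 of 11 KO/NTZ libraries it was above every KO/PEG library, and its difference was 1.35 (SE 0.31, edgeR adjusted p = 0.0197). Prph, the peripheral neuron filament peripherin, had medians of 1.87, 5.46, 6.19 and 6.66 CPM in KO/PEG, KO/NTZ, WT/PEG and WT/NTZ, and a difference of 1.41 (SE 0.36, edgeR adjusted p = 0.0389). Uchl1, a ubiquitin hydrolase of neurons and endocrine cells, had medians of 5.88, 12.7, 9.93 and 8.87 CPM in that order, and a difference of 1.19 (SE 0.25, edgeR adjusted p = 0.0126). Outside the list, the neuronal genes Chd5, Tmem179 and Nsg2 had differences of 1.60 (edgeR adjusted p = 0.0106), 1.81 (edgeR adjusted p = 0.0126) and 1.16 (edgeR adjusted p = 0.0238), and Iqsec2, a synaptic exchange factor, one of 0.43 (edgeR adjusted p = 0.019). Iqsec2 was the exception in which the WT effect (-0.22) was by a small margin larger in size than the KO effect (0.21).

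Smooth muscle markers were also higher in KO/NTZ than in KO/PEG by the median of their sum. Whether they moved with these rises from library to library was not tested. The summed level of 12 smooth muscle genes was 1945 to 5586 CPM in KO/PEG (median 3048), 3466 to 7229 in KO/NTZ (median 5833), 4178 to 6586 in WT/PEG and 4663 to 7781 in WT/NTZ. The 18 neuronal and glial genes summed to 22.4 to 70.8 CPM in KO/PEG, 33.8 to 91.3 in KO/NTZ, 82.8 to 140.3 in WT/PEG and 69.4 to 132 in WT/NTZ. In both lists KO/PEG was the low group and its range overlapped that of KO/NTZ. Of the 12 smooth muscle genes 7 rose with NTZ in KO, against 3.02% of all genes. None passed in WT and none passed for the difference by edgeR, for which their median was 0.48. With the smooth muscle and squamous sums as covariates, 28 of the 35 positive calls with the larger KO effect still passed, among them Adgrb1, Sox10 and Uchl1, while Prph did not (edgeR adjusted p = 0.0811). With only KO animals numbered below 100, 10 of these 35 passed, against 31 of the 41 negative calls with the larger KO effect. Adgrb1, Sox10 and Uchl1 were among the 10. Without WT_86 and WT_118, 11 of the 35 passed, against 18 of the 41 negative calls. Adgrb1 passed then (edgeR adjusted p = 0.00871), while no gene of the neuronal and glial list did. Uchl1 was at 1.11 (edgeR adjusted p = 0.0507) and Sox10 at 1.29 (edgeR adjusted p = 0.0596).

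**Figure D3:**
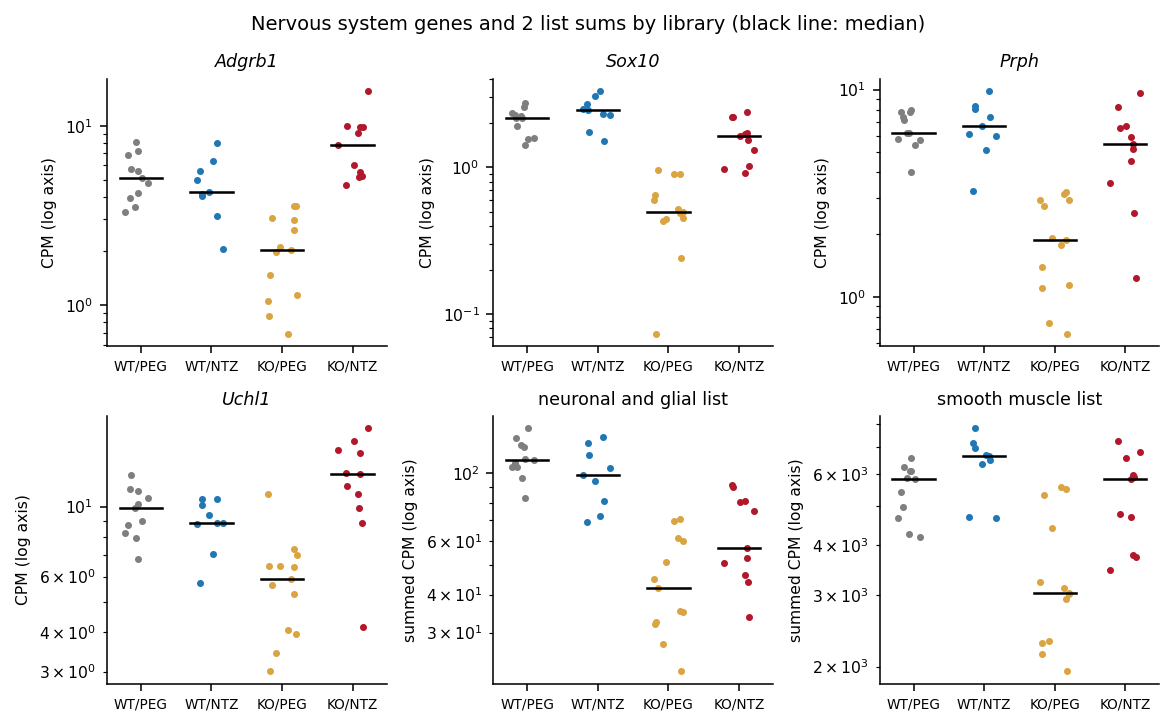
CPM of 4 genes and summed CPM of the neuronal and glial list and the smooth muscle list in each of the 44 libraries (vertical log axes), with a black line at each group's median. KO/PEG is the low group in all 6 panels, and its range overlaps that of KO/NTZ in all panels but that of Adgrb1.

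Other genes with a positive difference are given singly. Fbln1, which encodes the matrix protein fibulin, had medians of 31.5 CPM in KO/PEG, 47.2 in KO/NTZ, 72.2 in WT/PEG and 62.1 in WT/NTZ, and a difference of 0.77 (SE 0.15, edgeR adjusted p = 0.0106). Hmcn2, a large matrix protein, had a difference of 1.65 (SE 0.35, edgeR adjusted p = 0.0106). Both stand outside the list of matrix and matricellular genes, in which 21 of 26 differences were below 0 (median -0.42), none passed as positive and 2 passed as negative, and 7 genes fell and 1 rose with NTZ in KO mice. Scnn1a, the alpha subunit of the epithelial sodium channel, had medians of 46.3 and 67.5 CPM in the KO groups and 91.4 and 87 in the WT groups, and a difference of 0.64 (edgeR adjusted p = 0.016). Ppargc1b, a coactivator of mitochondrial genes, had a difference of 0.83 (edgeR adjusted p = 0.019), whereas none of 30 nuclear genes of oxidative phosphorylation passed (median 0.07). By their medians Fbln1, Scnn1a, Hmcn2 and Ppargc1b were lower in KO/PEG than in the other 3 groups. With only KO animals numbered below 100 none of the 4 passed by edgeR, with adjusted p of 0.0662, 0.121, 0.0767 and 0.125. Of 24 cell cycle genes 1 passed, Ccnb2, the mitotic cyclin B2, with KO medians of 9.7 and 15.4 CPM and a difference of 0.99 (edgeR adjusted p = 0.0299). Mki67, the usual marker of cycling cells, had a difference of 0.67 (edgeR adjusted p = 0.21), and the median over the list was 0.23.

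In WT mice the genes that rose with NTZ were led by the interferon response, by which cells answer interferon through STAT and IRF factors and express antiviral proteins. Of 23 interferon-stimulated genes tested, 18 rose with NTZ in WT mice, against 1.02% of all genes, and none passed in KO mice by edgeR. For the difference 10 passed, all negative, against 0.724% of all genes. The median difference over the list was -1.99, from a median of 2.10 in WT and -0.15 in KO. WT_86 and WT_118 stood above all other libraries. Isg15 (chr4:156199424-156200818), a ubiquitin-like protein, was at 120.2 CPM in WT_86 and 66.3 in WT_118, and at 1.91 to 8.17 in the other 7, beside 0.815 to 6.33 CPM in WT/PEG (median 2.3), 5.94 to 15.5 CPM in KO/PEG (median 8.58) and 3.6 to 23.3 CPM in KO/NTZ (median 8.97). Oas2, which senses double-stranded RNA, was at 70.5 and 47.8 CPM in these libraries, 1.03 to 6.16 in the other 7 and 0.599 to 3.59 CPM in WT/PEG (median 1.4). The pattern was the same for Apol9b, at 40.0 and 16.1 CPM against 0.318 to 2.62, and for Zbp1, a sensor of Z-form nucleic acid, at 29 and 52.8 against 0.796 to 1.97.

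With all libraries the difference was -3.50 (SE 0.66, edgeR adjusted p = 0.00823) for Oas2, -3.70 (edgeR adjusted p = 0.0106) for Zbp1, -2.79 (edgeR adjusted p = 0.0122) for Oasl2, -2.37 (edgeR adjusted p = 0.0136) for Irf7, the factor that amplifies the response, and -3.01 (edgeR adjusted p = 0.0248) for Isg15. The other calls of the list were Ifi44, Apol9b, Usp18, Ddx60 and Xaf1, with differences of -2.67, -3.57, -2.39, -2.92 and -1.5. Ifit1bl1, a member of the antiviral IFIT family outside the list, had a difference of -4.72 (edgeR adjusted p = 0.0106). Without WT_86 and WT_118, none of the 23 genes passed for the difference or in WT mice by edgeR, and the median difference was -0.62. The value for Oas2 was then -1.49 (edgeR adjusted p = 0.103) and that for Isg15 -0.59 (edgeR adjusted p = 0.765). Across the 68 genes with the larger effect in WT, WT_86 and WT_118 were the highest pair of WT/NTZ libraries for 28, and none of these 28 passed without them. The interferon calls thus rested on 2 of the 9 WT/NTZ libraries.

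**Figure D4:**
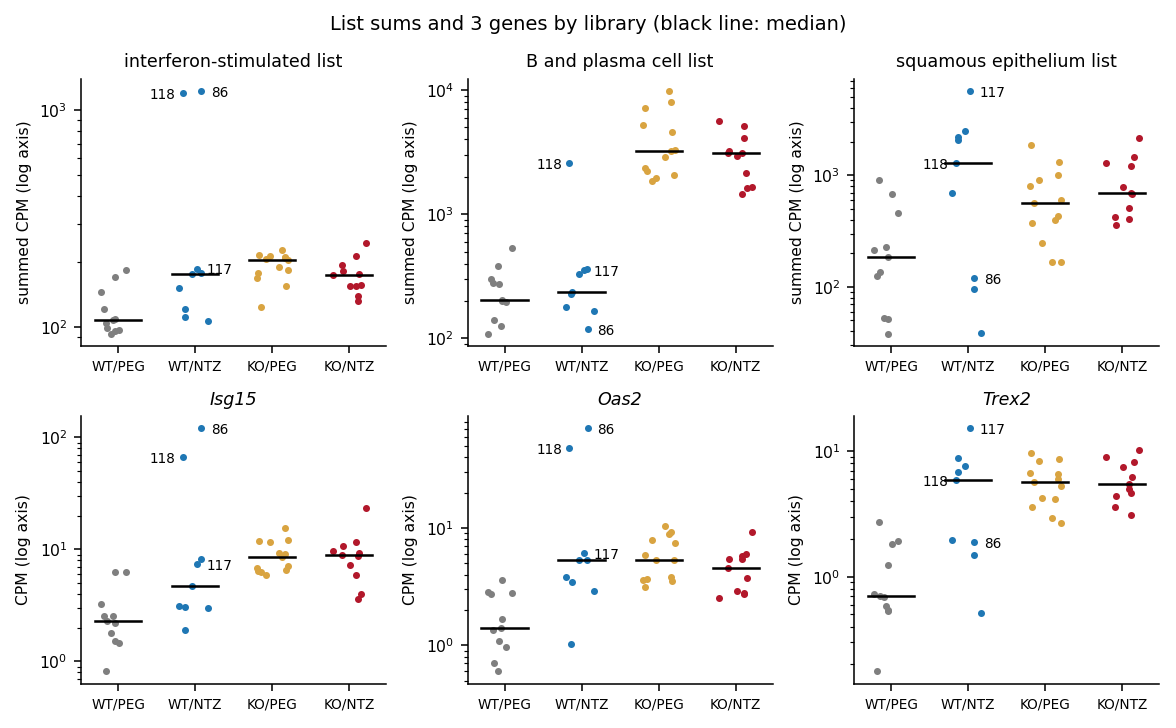
Summed CPM of 3 gene lists and CPM of 3 genes in each of the 44 libraries (vertical log axes), with a black line at each group's median and WT_86, WT_117 and WT_118 marked by number. WT_86 and WT_118 stand above all others in the interferon list, Isg15 and Oas2, WT_118 stands above the other WT libraries in the B and plasma cell list, and WT_117 is highest in the squamous list and in Trex2.

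Interferon-stimulated promoters commonly hold the interferon-stimulated response element, searched here as a pair of GAAA blocks with 2 bases of any kind between them, on both strands and with overlaps allowed. It was in 2.98% of all windows (3.46% of genes) of 250 bases before a RefSeq start, in 13 of the 44 called genes with the larger effect in WT that have a window, and in 3 of the 54 with the larger effect in KO. Of the 7 called genes of the interferon list with a window, 3 had a match, and these are shown (RefSeq, GRCm38.p6, 5′ to 3′ on the gene's strand) with the matches in capitals. In Apol9b the match lies across the start of a GENCODE exon, and only 30 bases are printed. The element was picked after the genes were known, and a match is a description of the letters only.
Isg15, upstream window (chr4:156200819-156201068, minus strand): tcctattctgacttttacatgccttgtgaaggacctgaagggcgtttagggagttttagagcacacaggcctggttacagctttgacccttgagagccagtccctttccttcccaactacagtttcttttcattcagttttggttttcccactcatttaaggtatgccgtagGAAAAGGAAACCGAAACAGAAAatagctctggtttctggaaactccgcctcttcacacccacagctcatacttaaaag
Apol9b, around the element (chr15:77729028-77729057, plus strand): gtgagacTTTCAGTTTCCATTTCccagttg
Ddx60, upstream window (chr8:61927837-61928086, plus strand): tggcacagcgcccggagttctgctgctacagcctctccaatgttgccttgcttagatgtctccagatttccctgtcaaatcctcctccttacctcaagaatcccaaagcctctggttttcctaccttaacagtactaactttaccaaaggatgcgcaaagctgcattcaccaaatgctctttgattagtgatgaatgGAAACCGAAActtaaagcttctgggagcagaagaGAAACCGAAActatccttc

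Markers of squamous epithelium varied widely between WT/NTZ libraries. By edgeR none of 17 such markers passed for the difference, in WT mice or in KO mice. Their median difference was -2.14, with 17 of 17 below 0, and their sum was 38.4 to 5695 CPM in WT/NTZ, 37.7 to 905 in WT/PEG, 167 to 1866 in KO/PEG and 361 to 2150.2 in KO/NTZ. Barx2 (chr9:31846044-31913462), a homeobox factor of stratified epithelium and muscle, was at 0.088 to 2.44 CPM (median 0.375) in WT/PEG and 0 to 13.9 (median 2.25) in WT/NTZ, and at 4.58 to 22.4 (median 13.6) in KO/PEG and 2.58 to 6.88 (median 5.46) in KO/NTZ, and its difference was -4.04 (SE 0.69, edgeR adjusted p = 0.00194). Among the genes called for the difference it was the 1 past the threshold in both genotypes. Its effects were -1.41 (edgeR adjusted p = 0.0393) in KO and 2.63 (edgeR adjusted p = 0.00587) in WT, in opposite directions. Trex2, a keratinocyte DNase, was at 0.176 to 2.72 CPM (median 0.701) in WT/PEG and 0.515 to 15.2 (median 5.84) in WT/NTZ, and at 2.69 to 9.69 (median 5.63) in KO/PEG and 3.08 to 10.2 (median 5.5) in KO/NTZ, with a KO effect of 0.10, a WT effect of 2.43 and a difference of -2.33 (SE 0.52, edgeR adjusted p = 0.019). Cldn4, a tight junction claudin, had medians of 0.392, 2.94, 29.7 and 12 CPM in the order WT/PEG, WT/NTZ, then KO/PEG and KO/NTZ, and a difference of -3.36 (SE 0.68, edgeR adjusted p = 0.0106). For Barx2, Trex2 and Cldn4 the highest WT/NTZ library was WT_117, which also had the highest squamous sum. With the smooth muscle and squamous sums as covariates, Barx2 and Trex2 passed at smaller differences of -2.47 (edgeR adjusted p = 0.00603) and -1.13 (edgeR adjusted p = 0.0417), and Cldn4, at -1.63, did not pass (edgeR adjusted p = 0.0859). With only KO animals numbered below 100 Trex2 did not pass, at -2.27 (edgeR adjusted p = 0.0645). With the covariates the number of genes that changed with NTZ in WT mice went from 153 to 8. Tent5b, a poly(A) polymerase, and Adh6a, an alcohol dehydrogenase, had by estimate the larger effect in WT too. Their differences were -1.24 (edgeR adjusted p = 0.0224) and -3.20 (edgeR adjusted p = 0.0106), and both passed for the difference without WT_86 and WT_118. The sum of the effects passed for Tent5b (edgeR adjusted p = 0.0112) and not for Adh6a (edgeR adjusted p = 0.112). Tent5b did not pass with the covariates, at -0.85 (edgeR adjusted p = 0.0594), nor Adh6a with only KO animals numbered below 100, at -2.73 (edgeR adjusted p = 0.0518).

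Immunoglobulin segments made up 11 of the calls, all with a negative difference. How many such segments were tested is not given here, so the 11 cannot be set against their share of all genes. In every one, WT_118 was the highest WT/NTZ library, and none passed once WT_118 was left out. The sum of 11 B and plasma cell markers was 2578 CPM in WT_118, 119.6 to 365 in the other 8 WT/NTZ libraries, 108 to 539 in WT/PEG, 1836 to 9805 in KO/PEG and 1443 to 5658 in KO/NTZ. Such segments are near-identical copies of each other, so reads may be split between them and single segments are uncertain.

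Among genes outside the naming rule, chosen after their values were seen, 3 of 13 genes and targets of the circadian clock that were looked at passed for the difference. Dbp, a transcription factor that follows the clock closely, was at 0.88 to 9.35 CPM (median 1.28) in WT/PEG and 1.59 to 24.5 (median 3.47) in WT/NTZ, and at 1.71 to 20.2 (median 9.07) in KO/PEG and 2.1 to 13.6 (median 3.33) in KO/NTZ, with a difference of -2.65 (SE 0.64, edgeR adjusted p = 0.0265). Per3 had a difference of -1.87 (edgeR adjusted p = 0.0282) and Tef one of -1.30 (edgeR adjusted p = 0.0394). For each of the 3 the highest WT/NTZ libraries were WT_86, WT_92 and WT_93, with 16.4, 15.5 and 24.5 CPM of Dbp, and neither the KO nor the WT effect passed. Without WT_86 and WT_118 none of the 3 passed by edgeR, with -2.54 (edgeR adjusted p = 0.0735) for Dbp, nor did they with only KO animals numbered below 100. The other 10 genes did not pass, with differences from -1.55 (Ciart, edgeR adjusted p = 0.307) to 0.65 (Npas2, edgeR adjusted p = 0.377). Nr1d2 was at -1.24 (edgeR adjusted p = 0.0802), Nr1d1 at -0.86, Per2 at -1.07, Per1 at -0.10, Bhlhe41 at -0.49 and Cry1 at 0.42, and the core clock genes Arntl and Clock at 0.35 and 0.09. The hour of sampling is not given in the sources used here, and its part was not tested.

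A few calls rest on genes with near-identical copies or few counts, and 17 of the called genes had a median under 3 counts in at least one group. Gm13509, a gene model of this kind, was at 0 in all 11 KO/NTZ libraries and at 0 to 7.11 CPM in KO/PEG, at least 8.49-fold lower by the group means against a floor of 3 counts per library, and at 4.66 to 22.9 CPM in WT/PEG (median 16.5) and 7.72 to 19.2 CPM in WT/NTZ (median 13.1). Gm2026 had the largest of the 36 positive differences by value, 7.84 (edgeR adjusted p = 0.00823), and its medians were 2.46 CPM in WT/PEG and 0 in the other 3 groups. The fitted size of such differences depends on how zeros are handled. Gm13509 and Gm2026 are therefore uncertain.

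No gene of the lists for most other corpus cell types passed for the difference. By edgeR, none of 19 parietal cell genes passed for the difference (median -0.07), none of 10 chief cell genes (-0.34), none of 13 surface mucous cell genes (0.08), none of 14 genes of intestinal-type epithelium (-0.70) and none of 13 mast and tuft cell genes (-0.11). The defining markers of the corpus were present in every library, with parietal cell sums of 14344 to 22256 CPM in WT/PEG and 4961 to 12058 in KO/PEG. They were 9982 to 22334 in WT/NTZ and 5596 to 8978 in KO/NTZ. WT_118 had the lowest sums of the WT libraries for parietal cells (9982) and for chief cells (75806, against 96302 to 243658 in WT/PEG). Among 15 antimicrobial and oxidase genes of epithelial defence none passed for the difference, and the median difference was -2.13. With NTZ in KO 7 of them fell, against 2.69% of all genes. Their summed level, however, was higher by its median in KO/NTZ (8511 CPM, range 3153 to 17924) than in KO/PEG (3835, range 1406 to 15084). A missed threshold in these lists does not show that the responses were equal.

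The split between the genotypes varied with the settings. DESeq2 called 274 genes, 136 of them called by edgeR too, with 87 lower and 62 higher genes larger in KO and 125 larger in WT. The limma-trend method, which works on log values, called 56, 48 of them called by edgeR too, with 25 lower and 24 higher genes larger in KO and 7 larger in WT. With only KO animals numbered below 100, 135 genes passed, 77 lower and 24 higher genes larger in KO and 34 in WT. The genes with the larger effect in KO were the majority in these 3 settings and in all other alternatives but those given next. Examples are the smooth muscle and squamous covariates (94 lower and 85 higher genes against 46 in WT) and the fit without WT_86 and WT_118 (18 and 13 against 19). With a minimum count of 50 the margin was narrow (27 and 18 against 44). Genes with the larger effect in WT outnumbered those with the larger effect in KO in 3 alternatives. These were with genes of low count kept in (72 genes against 35 lower and 18 higher ones), with animal number as a term (79 against 37 and 33) and without the KO_110 libraries (55 against 32 and 22). Relative log expression factors gave equal numbers, with 73 against 48 and 25. With a single library left out, WT was ahead in 16 of the 44 fits and level in 2. Which genotype held more of the larger effects thus depended on the setting, and KO held more in most of them.

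**Figure D5:**
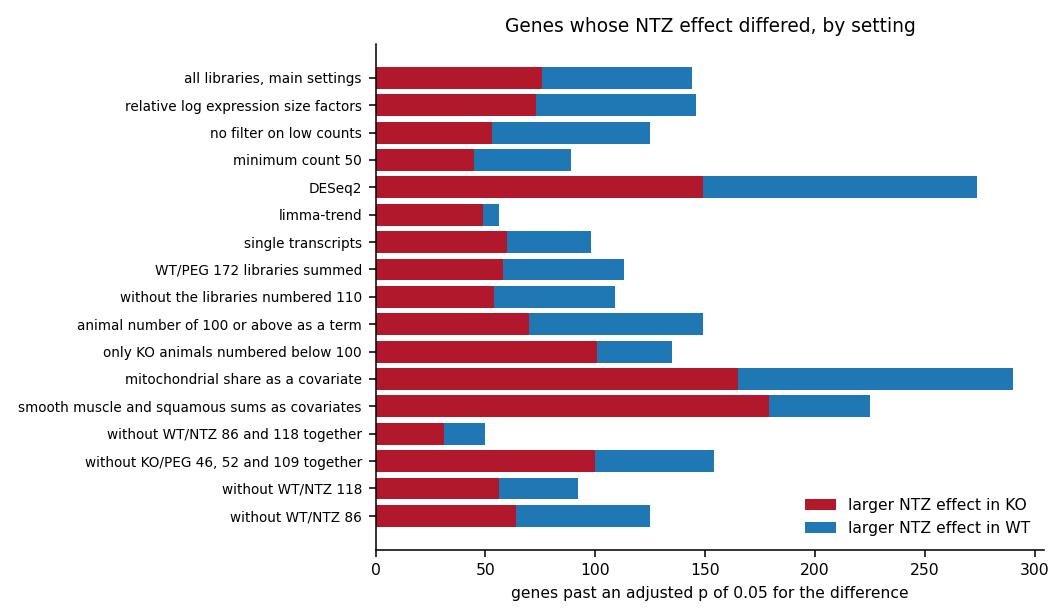
Number of genes past the threshold for the difference under each setting (horizontal axis), split by the genotype with the larger NTZ effect. The fit with the settings of the text has 76 genes in red (KO) and 68 in blue (WT), limma-trend keeps 7 in blue, and the fit without WT_86 and WT_118 keeps 19 in blue.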

How the data were processed

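RNA was sequenced from TruSeq Stranded mRNA libraries, and the authors deposited estimated counts of GRCm38 transcripts from kallisto 0.42.4 (per the submitters' notes) for all 44 libraries. The strand setting is not given in the sources used here. The deposited expected counts of 94080 transcripts were summed per gene with GENCODE vM21, and the sums were rounded. This left 1708 transcripts without a gene and gave 31517 genes. Every column was mapped to its sample by its title. Library totals were 6065084 to 21945124. Genes were filtered with filterByExpr (minimum count 10, minimum total 15), scaled by TMM and fitted with the edgeR 4.0.16 quasi-likelihood model over all 44 libraries with the 4 groups as terms, and the contrast was (KO/NTZ minus KO/PEG) minus (WT/NTZ minus WT/PEG), with Benjamini-Hochberg adjustment over 14911 genes. The study tested transcripts with Sleuth, which could not be run on these counts.

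Atp4b, the 12 genes with the smallest p in each direction, list members past the threshold and the 6 called genes with the smallest p for the WT effect were named, 49 in all, with members of the ECL cell, hormone, mucous, mucin and plasma protein lists that did not pass described too. The members and lists were chosen with earlier results of these data known. Alternatives used DESeq2 1.42.0, limma 3.58.1, other filters, scaling, covariates and subsets. The scripts were tested on simulated data. R 4.3.3, Python 3.11.15, pandas 2.3.3 and matplotlib 3.10.9 were used.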

Additional observations from a re-analysis of the deposited data

Results flagged for a closer look

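Of 79 values examined in the 9 WT/NTZ libraries (the named genes and the list sums), 15 had 1 library far from the other 8 by Dixon's criterion, which chance exceeds in about 1 in 20 groups. WT_118 was the highest library for Vnn1 (16.9 CPM), Muc13 (9.55 CPM), Adh6a (4.81 CPM) and Cp (10.3 CPM). It was also the highest in the summed CPM of macrophage and myeloid markers (290.0), B and plasma cell markers (2578) and T and NK cell markers (36.6), and the lowest in that of pancreatic acinar markers (15742). The acinar sum was nearly all from Clps. In the WT/NTZ libraries other than WT_86 and WT_118, Clps was at 34376 to 48233 CPM and the sum at 34453.5 to 48333. WT_117 was the highest for Barx2 (13.9 CPM) and in the summed CPM of squamous epithelium (5695), skeletal muscle (194), adipocyte (959) and hepatocyte (67.4) markers. WT_86 was the highest for Apol9b (40.0 CPM), and WT_99 in the summed CPM of mucins (10515). Groups of 11 and 13 libraries were too large for this criterion.

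By the edgeR test of the difference itself, the response to NTZ depended on genotype for 108 genes with a negative and 36 with a positive difference.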

How the results depend on the processing

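The difference of each of the 49 named genes kept its sign under the alternatives tried, and the cause of each change below was not tested. The balance between the genotypes turned: more genes were larger in WT without the filter on low counts (72 against 35 lower and 18 higher ones in KO), with animal number as a term (79 against 37 and 33) and without the KO_110 libraries (55 against 32 and 22), and relative log expression factors gave a tie (73 against 48 and 25). Among genes larger in KO, the higher ones outnumbered the lower ones with the mitochondrial share (92 against 73) and without KO_46, KO_52 and KO_109 (62 against 38). With the settings of the report, 41 lower and 35 higher genes were larger in KO, 68 were larger in WT, 36 were higher and 108 lower, and 851 and 153 changed with NTZ in KO and WT. In this order, where they moved, a minimum count of 50 gave 27, 18, 44, 18 and 71 (89 in all) and 100 in WT. DESeq2 gave 87, 62, 125, 68 and 206 (274 in all). The mitochondrial share as a covariate gave 73, 92, 125, 102 and 188 (290 in all). Without WT_86 and WT_118 there were 18, 13, 19, 16 and 34 (50 in all) and 75 in WT. The limma-trend method gave 56 in all, 25 lower genes larger in KO, 7 larger in WT, 31 lower and 3 in WT. The smooth muscle and squamous sums as covariates gave 225 in all, 94 lower and 85 higher genes larger in KO, 86 higher, and 4213 and 8 changed in KO and WT. Single transcripts gave 19 higher genes larger in KO, 38 larger in WT, 22 higher and 57 in WT. With animal number as a term 1386 genes changed in KO and 309 in WT. Without KO animals numbered 100 or above, 1397 changed in KO, 77 lower genes were larger in KO and 34 larger in WT. The higher genes, and those of them larger in KO, numbered 19 and 18 without the filter, 23 and 22 without the KO_110 libraries, and 64 and 62 without KO_46, KO_52 and KO_109. DESeq2 shared 136 of its calls with edgeR, limma-trend 48 and single transcripts 53.

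As each library was left out in turn, WT was ahead in 16 of 44 fits and level in 2. The genes with a difference numbered 92 to 213, those changed in KO 568 to 1816 (without KO_37 and KO_109), those changed in WT 57 to 247 (without WT_118 and WT_93), those lower and larger in KO 27 to 54, those higher and larger in KO 17 to 62, those larger in WT 36 to 120, those higher 18 to 65 and those lower 60 to 170. Of the 49 named genes, counts that stayed on their side of the threshold ran from 22 without WT_86 and WT_118 and 25 with limma-trend to 49 with DESeq2. The depth leaves genes near the floor of 3 counts uncertain. No paired analysis was possible because the animal numbers do not pair the groups: the KO groups share only KO_110 and the WT groups share none.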

Other observations

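Lists that the report does not describe held no gene past the threshold for the difference by edgeR. The median differences, against -0.01 over all genes, were -0.76 over 7 T and NK cell genes, -1.98 over 5 skeletal muscle genes, 0.35 over 8 adipocyte genes, -0.15 over 6 pancreatic acinar genes and -0.35 over 13 mitochondrially encoded genes. Of 10 genes of endothelium and red blood cells 8 fell with NTZ in KO, where KO_46, KO_52 and KO_109 were high, and their median difference was -1.18.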
